A study of Mus musculus with 16 samples.

Results

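Cytosolic ribosomal protein genes encode the proteins that, with the ribosomal RNAs, build the large (60S) and small (40S) subunits of the ribosome outside mitochondria. The genes were taken from the symbols of the deposited count table, as Rpl or Rps followed by a number with or without a closing a, x, y or l, together with Rplp0, Rplp1, Rplp2 and Rpsa. Symbols marked as pseudogenes by -ps and those of the S6 kinases were left out. Rps4l, which GENCODE annotates as a pseudogene, was kept by the rule. The rule took 81 of the 24062 genes in the table, of which 49 belong to the 60S and 32 to the 40S subunit. The same 81 genes were found in the table of FPKM, a level of fragments that is scaled to transcript length and to the depth of the library.

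RNA-seq was measured in the whole brains of 16 adolescent females of C57BL/6J, a standard inbred mouse strain, cerebellum included, with 1 library per mouse. The brains were taken on postnatal day 45, and the labels name no transgene or deletion in any group. The WW group drank only water, and the NW group drank nicotine at 200 µg/ml during 22 h of each day. The Water-Ethanol group drank water in place of nicotine and was given 20% v/v ethanol in limited sessions on 4 days, a protocol known as drinking-in-the-dark, and the NE group had both substances, with the nicotine bottles off the cage during the sessions. The final session lasted 4 h. The nicotine bottles were off the cages of the NW mice in these hours as well. The paper names withdrawal from nicotine as a possible source of the effects in its nicotine group. There were 4 mice in each group, drawn at random from the animals of the behavioural study. In whole tissue, fewer cells of a type and less RNA per cell cannot be told apart.

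Counted reads ranged from 27100352 to 32880979 per mouse, and no pair of libraries was identical. Values below are CPM, the counted reads of a gene relative to the scaled total of its library, unless FPKM is named. Some libraries stood apart. Gabra6, a receptor subunit of cerebellar granule neurons, was at 36.2 CPM in WW replicate 4 and 55.9 CPM in NW replicate 3, against 116 to 152 CPM in the other 14 mice. The precursor of ribosomal RNA, Rn45s, took 3.90% of counted reads in NW replicate 3 and 1.37% in NW replicate 1, against 0.274% to 0.729% in the other 14, and the pituitary hormone gene Prl was at 8.15 CPM in NW replicate 3 and at most 1.63 CPM elsewhere. The neuron markers summed to 7121 to 7964 CPM in the 16 libraries, and 4 of the 5 red blood cell markers were at 0 counts in all 16 mice. The paper lists the globin gene Hbb-b1 among its differentially expressed genes, so these 0 counts are no measure of blood. Why they were 0 was not tested.

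Ribosomal protein genes are transcribed at high levels in nearly all cells, and their mRNAs are known as 5′ TOP transcripts, since they begin with a run of pyrimidines through which the mTOR pathway sets how strongly they are translated. Ribosome supply in neurons is tied to growth and to protein synthesis at synapses. Promoter sequences from RefSeq (GRCm38.p6, 250 bases before to 50 after the start) were found for 60 of the 81 genes. The pentamer CTTTC, a core of the pyrimidine run, lay on the gene's strand between 20 bases before and 50 after the start in 29 of the 60 (48.3%), and in 8.86% of 27025 promoters of all genes. TTCCG, the core of sites for ETS factors, searched on both strands of the 300 bases, was in 52 of 60 (86.7%) against 30.3% of all, whereas TATAA, the TATA box, was in 26.7% against 25.5%. These matches are letters in a window and were not tested as sites.

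The stretches below show where the pyrimidine run sits in 5 of the genes with CTTTC near the start and, for contrast, in the near-silent paralog Rpl3l. Each covers 30 bases before and 20 after the RefSeq start on the gene's strand, with CTTTC in capitals. They lie at chr2:39005112-39005161 (-) for Rpl35, chr7:4792935-4792984 (+) for Rpl28, chr7:141447621-141447670 (+) for Rplp2, chr11:114668550-114668599 (+) for Rpl38, chr3:90213629-90213678 (-) for Rps27 and chr17:24727796-24727845 (+) for Rpl3l on GRCm38.p6.
Rpl35: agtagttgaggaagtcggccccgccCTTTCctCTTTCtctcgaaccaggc
Rpl28: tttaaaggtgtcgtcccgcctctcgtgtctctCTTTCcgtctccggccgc
Rplp2: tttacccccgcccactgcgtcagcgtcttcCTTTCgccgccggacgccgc
Rpl38: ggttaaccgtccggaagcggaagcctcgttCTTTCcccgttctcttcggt
Rps27: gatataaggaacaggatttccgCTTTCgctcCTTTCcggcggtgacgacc
Rpl3l: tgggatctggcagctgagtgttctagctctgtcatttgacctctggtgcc

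The genes were short and abundant. Their median exon length was 710 bases against 2208 for all genes in the table. Per length, the median of their mean FPKM was 249, with 70 of 81 over 100 FPKM, while the 13445 genes of the table at or over 1 FPKM had a median of 11.3. Rpl38, a 60S protein gene (ENSMUSG00000057322, chr11:114668543-114672331 (+) on GRCm38), was the highest with a mean of 782 FPKM and a range of 706 to 829 over the 16 mice. The lowest was Rpl10l, a retrotransposed copy of Rpl10 known from testis, with a mean of 0.0024 FPKM and 1 read in 1 NE mouse. Summed over the 81 genes, the share of all counted reads was 0.981% ± 0.0454 (SD, n = 4) in WW, 1.02% ± 0.0535 in NW, 0.980% ± 0.0469 with ethanol alone and 0.954% ± 0.0291 in NE, and the groups overlapped.

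The tissue paralogs were far below the rest or apart from them. Rpl39l, a copy of Rpl39, had 0 to 4 reads in a mouse, and Rpl3l, the copy of Rpl3 used in striated muscle, had 2 to 14. Rps27l, a paralog of Rps27 that p53 induces, was measurable at 8.56, 7.84, 9.82 and 9.08 in WW, 9.42, 9.06, 7.56 and 7.88 in NW, 8.76, 8.99, 8.15 and 8.98 with ethanol alone and 7.77, 7.57, 9.87 and 9.27 in NE, a range of values in which all 4 groups overlapped. Rps4l, which GENCODE annotates as a transcribed processed pseudogene, was at 11, 11.9, 13.5 and 8.59 in WW, 13.2, 12.3, 10.0 and 14 in NW, 10.3, 12.4, 11.4 and 11.7 with ethanol alone and 10.1, 10.7, 14.2 and 12.1 in NE. It had the widest spread of the 74 genes with a mean of at least 20 counts, with a coefficient of variation of 13.4% over the 16 mice, against a median of 5.64% for the 74 and 7.89% for all genes tested. In Rpl22, a 60S protein gene, the coefficient of variation was 2.14%, the smallest of the 74.

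For 4 genes the count table and the FPKM table disagreed. Rpl26 had 0 counts in all 16 mice, Rpl30 had 3 to 9, Rpl34 had 6 to 23 and Rps27 had 2 to 18, whereas the median of the mean counts over the 81 genes was 3494. Each of the 4 shares exon bases on the same strand with a second gene model, Rpl26 over 95.8% of its length with Gm15772, Rpl30 over 76.0% with Gm12191, Rpl34 over 59.9% with Rpl34-ps1 and Rps27 over 60% with Rps27rt, and these second models had 0 counts in all mice as well. In the FPKM table the pairs were among the abundant genes, with summed means over 16 mice of 463, 368, 315 and 540 FPKM in this order. Members whose exons overlap a gene on the opposite strand kept their reads, such as Rpl5, with 5383 to 6952 counts and 47.8% of its length shared with Fam69a. The program that made the counts is not given in the sources used here, and the part of the overlap in the low counts was not tested. The division of FPKM between 2 models of a pair is likewise uncertain, so only their sums are compared below.

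**Figure D1:**
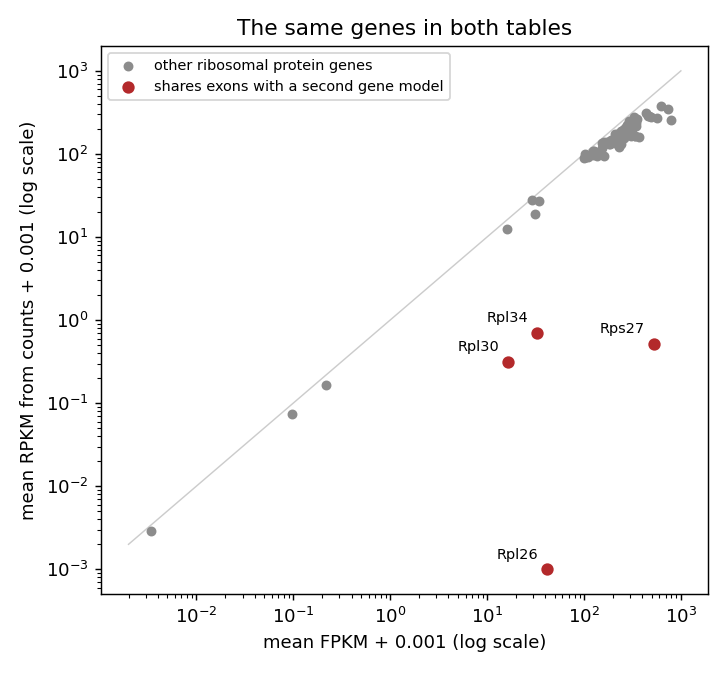
Mean FPKM (x axis, log scale) and mean RPKM computed from the counts (y axis, log scale) over 16 mice for the 81 cytosolic ribosomal protein genes, each with 0.001 added; the grey line marks equal values. Rpl26, Rpl30, Rpl34 and Rps27, in red, lie far below the line.

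Reads from copies elsewhere in the genome are a further limit on single genes. In 65 of the 81, at least 1 window of 150 bases, the read length, occurred letter for letter in another annotated gene, mostly in pseudogenes. Over all 81 the median share of such windows was 16.3%. In 13 genes over 50% of windows did so, among them Rpl10 (83.3%), Rps6 (82.4%), Rpl36a (81.1%), Rps12 (79.3%), Rpl3 (71.0%) and Rps27a (50.2%), and their values are uncertain to that extent.

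The ribosomal protein genes moved together from mouse to mouse. After the group means were removed, the median Pearson's r between any pair of the 74 genes was 0.61, against -0.00075 for all 15592 genes tested; these libraries and their scaling are shared by all genes, and the values are a description over 16 mice. The mean level of the 74 genes against their own 16-mouse mean was -3.06%, -0.470%, -2.52% and 5.86% in the WW mice, 7.69%, 5.25%, 0.182% and 3.57% in NW, -0.959%, 5.94%, -5.77% and -2.77% in Water-Ethanol, and -7.15%, 1.46%, -2.33% and -3.43% in NE. All 4 NW mice were at or above the mean and 3 of the 4 mice of every other group were below it, with WW replicate 4, Water-Ethanol replicate 2 and NE replicate 2 as the high mouse of each. NW replicate 1 had 73 of the 74 genes above their mean, and NE replicate 1 had 1. Because the genes move as a block, the number of genes on one side in a comparison is not a number of independent observations.

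**Figure D2:**
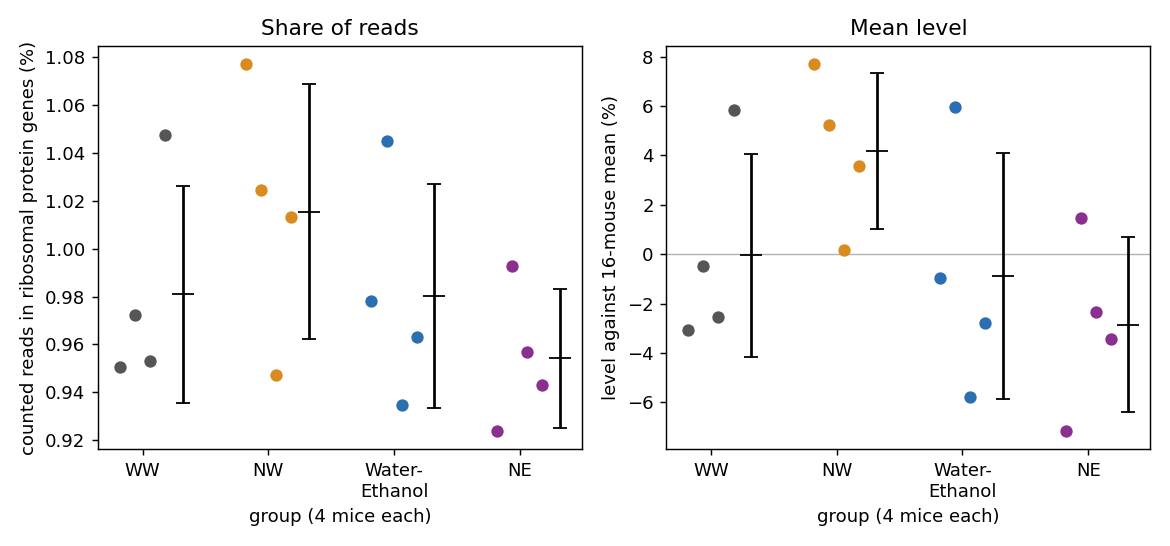
Share of counted reads in the 81 ribosomal protein genes (left, percent) and mean level of the 74 genes with at least 20 mean counts against their 16-mouse mean (right, percent), with 1 point per mouse and the group mean ± SD beside the points. On the right the NW mice lie between 0.182% and 7.69% with the highest group mean, 4.17%, and the groups overlap in both panels.

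**Figure D3:**
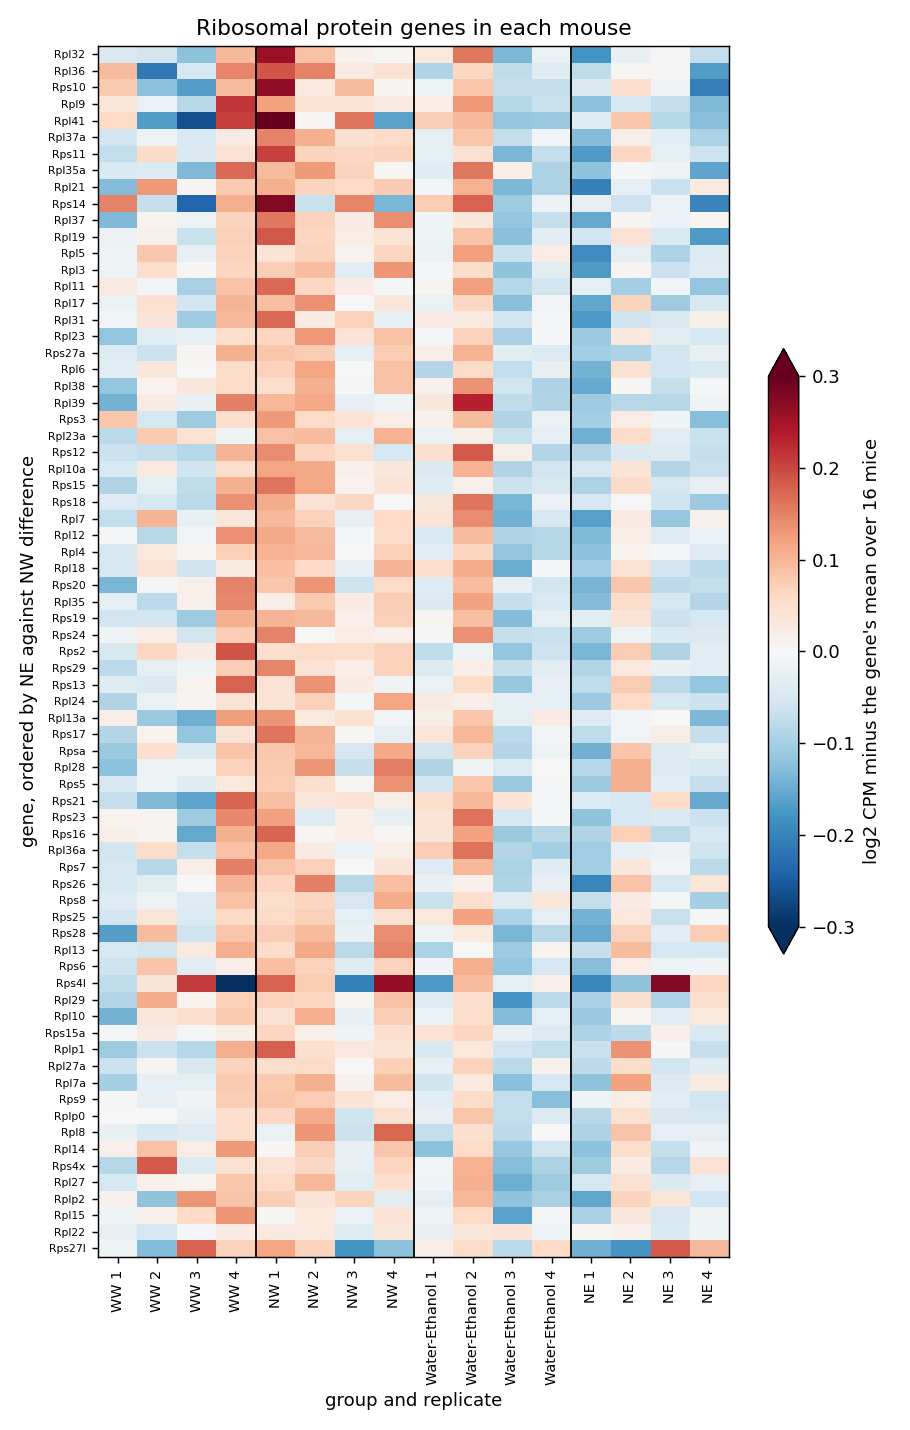
Log2 CPM of 73 of the 74 genes (rows, ordered by the NE against NW difference) in the 16 mice (columns, lines between groups), each minus the gene's mean over 16 mice. The colour runs down whole columns, such as the red column of NW replicate 1 and the blue one of NE replicate 1.

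Nicotine alone was examined by comparing NW with WW. Of 77 ribosomal protein genes tested, 73 (94.8%) were higher in NW, while 53.6% of all 15344 genes tested were, and the median log2 fold change was 0.054 against 0.0096 over all genes, a difference of 3.78% in the median gene. No ribosomal protein gene passed the adjusted threshold of 0.05 by edgeR's quasi-likelihood test, and percent called over all genes was 0. At an unadjusted p under 0.05 there were 4 genes, among them Rpl37a, Rpl23 and Rpl37, all higher in NW (5.19% of members, against 1.95% of all genes in that direction and 8.44% in both). The NW mice lay above all WW mice in 2 of the 77 (2.6%, against 1.92% of all genes). The number at an unadjusted p under 0.05 was 17 without WW replicate 4 and 1 without WW replicate 3.

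Rpl37a, a zinc-binding 60S protein, was at 88, 90.8, 88.8 and 93.3 CPM in WW and 102, 98.7, 94.6 and 95.5 in NW without overlap (log2 fold change 0.11, SE 0.042, edgeR adjusted p = 0.495, exact permutation p = 0.0286). In Rpl23, which binds Mdm2 as well as the 60S subunit, the values were 137, 146, 147 and 155 in WW and 156, 163, 154 and 159 in NW, with 1 WW mouse inside the NW range (log2 fold change 0.11, SE 0.045, edgeR adjusted p = 0.546, exact permutation p = 0.0571). In 4 against 4 mice the smallest p that the exact two-sided permutation test allows is 0.0286.

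With ethanol alone the median gene lay close to its level with water. In Water-Ethanol against WW, 33 of 76 ribosomal protein genes were higher and 43 (56.6%, against 49.4% of all genes) lower, with a median log2 fold change of -0.0064 against 0.0015 over all 15323 genes tested, and the sign of this median changed with the mice left out (-0.042 without Water-Ethanol replicate 2, 0.024 without WW replicate 4). Again 0 ribosomal protein genes passed (smallest adjusted p = 0.197), where 0.457% of all genes did (70 genes, with 797 without WW replicate 4, 84 without WW replicate 1 and 0 or 1 without any other single mouse), and 2 had an unadjusted p under 0.05 and were lower in Water-Ethanol (2.63%, against 9.05% of all genes in that direction and 19.3% in both), and in no gene were all Water-Ethanol mice below the WW mice (5.8% of all genes). Without WW replicate 4, Rps21, a 40S protein gene, passed with a log2 fold change of 0.17 and an adjusted p of 0.030 by the same edgeR test.

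Rps2, a 40S protein near the mRNA entry, was at 214, 231, 225 and 253 CPM in WW and 210.3, 219, 204 and 212 in Water-Ethanol (log2 fold change -0.12, SE 0.048, edgeR adjusted p = 0.197, exact permutation p = 0.0571). Rpl14, a 60S protein, was at 140.0, 147, 141 and 152 and 127, 145, 128 and 133 in the same groups (log2 fold change -0.11, SE 0.047, edgeR adjusted p = 0.206, exact permutation p = 0.0857), and Rpl29, which also binds heparin, at 86.8, 99.9, 93.1 and 97 and 90.1, 95.8, 81.7 and 87.4 (log2 fold change -0.081, SE 0.054, edgeR adjusted p = 0.436, exact permutation p = 0.229). In each of the 3 genes Water-Ethanol was the lower group on average and its range overlapped that of WW.

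The NE mice were compared with WW for both substances together. Of 75 ribosomal protein genes tested, 64 (85.3%) were lower in NE, against 48.6% of all 15313 genes, with a median log2 fold change of -0.039 against 0.0039. The median of the 75 was -0.019 without WW replicate 4, -0.025 without NE replicate 1, -0.066 without NE replicate 2 and -0.025 after a correction for transcript length. None passed (smallest adjusted p = 0.204; 0.313% of all genes, or 48, were called, with 283 without WW replicate 4 and 0 to 11 without any other single mouse), and 4 had an unadjusted p under 0.05, namely Rpl5, Rpl9, Rpl14 and Rpl3 (5.33%, against 8.23% of all genes that were lower at that p and 17.5% in both directions). This number was 0 without NE replicate 1 and 9 without NE replicate 2. Rpl5, which with Rpl11 and the 5S RNA forms the particle that can restrain Mdm2, was at 202, 216, 200.4 and 214 CPM in WW and 179, 199.9, 191 and 198 in NE, all 4 NE mice below the WW mice, the 1 such gene of the 75 (1.33%, against 5.51% of all genes; log2 fold change -0.11, SE 0.042, edgeR adjusted p = 0.204, exact permutation p = 0.0286). For Rpl9, a 60S protein, the values were 233, 224, 215 and 264 in WW and 209, 219.8, 216 and 208 in NE, which overlap (log2 fold change -0.13, SE 0.056, edgeR adjusted p = 0.252, exact permutation p = 0.0857). Rpl14 had 127, 144, 132 and 138 in NE (log2 fold change -0.10, SE 0.043, edgeR adjusted p = 0.271, exact permutation p = 0.114). The same 4 WW mice entered the 3 comparisons with water, and the same 4 NE mice entered the comparisons with WW, Water-Ethanol and NW, so these values are not independent of each other.

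What nicotine adds to ethanol was examined by NE against Water-Ethanol, though ethanol intake may not have been equal. The paper reports that NE mice drank more ethanol in the final session than Water-Ethanol mice and had higher blood ethanol. These were 1-tailed tests in the animals of the behavioural study, and intake did not differ significantly on the earlier session days. The paper does not give intake for the sequenced mice alone. A difference in intake would also enter the ethanol effect, the nicotine effect and the interaction below, and its part was not tested. In NE against Water-Ethanol 59 of 75 ribosomal protein genes (78.7%) were lower in NE, against 50.5% of all 15319 genes. The median log2 fold change was -0.027, which came to -0.0025 without Water-Ethanol replicate 2. None passed (smallest adjusted p = 0.834), nor did any other gene of the table by edgeR; 888 of all genes (5.8%) and 5 of the 75 (6.67%, all lower, against 2.6% of all genes in that direction) had an unadjusted p under 0.05, and DESeq2 called 2 genes, none of them a ribosomal protein gene. The 5 became 0 without Water-Ethanol replicate 2 or NE replicate 1 and 11 without Water-Ethanol replicate 3. Rps23, a 40S protein of the decoding centre, was at 122, 133, 115 and 118 CPM in Water-Ethanol and 109, 114, 115 and 113 in NE (log2 fold change -0.11, SE 0.045, edgeR adjusted p = 0.834, exact permutation p = 0.0571). Rpl5 was at 201, 222, 195 and 207 in Water-Ethanol (log2 fold change -0.11, SE 0.047, edgeR adjusted p = 0.834, exact permutation p = 0.114) and Rps12, a 40S protein, at 101, 111, 98.9 and 91.9 in Water-Ethanol and 91.9, 94.7, 94.9 and 93.1 in NE (log2 fold change -0.11, SE 0.049, edgeR adjusted p = 0.834, exact permutation p = 0.114). All 3 had overlapping groups, and in none of the 75 were all NE mice below the Water-Ethanol mice (1.45% of all genes).

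Of the 5 pairs of groups compared, the median gene differed most between the nicotine mice with and without ethanol. In NE against NW, 73 of 75 ribosomal protein genes (97.3%) were lower in NE, against 49.3% of all 15361 genes, and the median log2 fold change was -0.099 against 0.0019 over all genes, or -6.66% in the median gene. None passed the adjusted threshold (smallest adjusted p = 0.244), and percent called over all genes was 0. At an unadjusted p under 0.05 there were 32 of 75 (42.7%), all lower in NE, where 11.9% of all genes were, 4.94% lower and 6.97% higher. NW and NE did not overlap in 16 of the 75 (21.3%), each lower in NE, against 3.28% of all genes in that direction. The number at an unadjusted p under 0.05 ran from 11 without NE replicate 1 to 42 without NE replicate 2, and it was 38 without NW replicate 3, the library with high Rn45s. With DESeq2 1 gene, Rpl9, passed (adjusted p = 0.047), among 94 calls over all genes.

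Rpl9 (ENSMUSG00000047215, chr5:65388364-65391431 (-) on GRCm38) was at 247, 234, 234 and 232 CPM in the NW mice and 209, 219.8, 216 and 208 in the NE mice, without overlap (a change of -9.96%, log2 fold change -0.15, SE 0.041, edgeR adjusted p = 0.244, exact permutation p = 0.0286). WW and Water-Ethanol, at 233, 224, 215 and 264 and 231, 249, 214 and 217, overlapped both. Rpl37a had 83.7, 92.8, 89.6 and 85.8 in NE and lay below the NW mice given above (log2 fold change -0.15, SE 0.046, edgeR adjusted p = 0.268, exact permutation p = 0.0286). Rpl35a, a 60S protein whose human gene is mutated in Diamond-Blackfan anaemia, was at 103, 106, 101 and 96.9 in NW and 89, 96.4, 96 and 86.7 in NE (log2 fold change -0.15, SE 0.049, edgeR adjusted p = 0.293, exact permutation p = 0.0286), again with every NE mouse below every NW mouse.

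Rpl5 and Rpl11 shared this order. Rpl5 was at 209.9, 214, 206 and 213 CPM in NW against the NE values above (log2 fold change -0.13, SE 0.044, edgeR adjusted p = 0.293, exact permutation p = 0.0286). Rpl11 was at 121, 112, 109 and 107 in NW and 105, 100.1, 107 and 98.9 in NE (log2 fold change -0.13, SE 0.05, edgeR adjusted p = 0.358, exact permutation p = 0.0286), where the nearest mice were 107.2 in NW and 106.7 in NE. Its WW and Water-Ethanol mice, at 109, 107, 100.3 and 114 and 108, 117, 101 and 103, overlapped both. Rps27a, which is translated as a fusion with ubiquitin, was at 175, 174, 162 and 174 in NW and 154, 155, 159 and 162 in NE, where 1 NW mouse fell into the NE range (log2 fold change -0.12, SE 0.042, edgeR adjusted p = 0.309, exact permutation p = 0.0571). It was at 161, 158, 166 and 178 in WW and 167, 178, 161 and 161 in Water-Ethanol.

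The stalk of the 60S subunit, which recruits the elongation factors, is built of Rplp0, Rplp1 and Rplp2. Rplp0 was at 146, 146, 144 and 151 in WW, 152, 157, 139.9 and 150.5 in NW, 143, 154, 138 and 142 with ethanol alone and 137, 151, 141 and 141 in NE. Rplp1 was at 163, 168, 166 and 189.8 in WW, 199, 182, 179.9 and 181 in NW, 170.4, 179.9, 169 and 167 with ethanol alone and 168, 193, 175 and 168 in NE, and Rplp2 at 73.8, 67.3, 80.2 and 77.7 in WW, 77, 75.1, 76.7 and 71.4 in NW, 71.7, 78.5, 67.2 and 68.4 with ethanol alone and 65.7, 76.6, 75 and 70.3 in NE. All groups overlapped in the 3 genes, and their NE against NW log2 fold changes of -0.074, -0.075 and -0.062 were nearer 0 than the median of the 75 genes, with adjusted p from 0.548 to 0.681 by edgeR.

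On the 40S side, Rpsa, which is also known as a laminin receptor, was at 235, 262, 245 and 269 in WW, 268, 271, 245 and 274 in NW, 244, 266, 238 and 251 with ethanol alone and 229, 268, 246 and 248 in NE. Rps6, the substrate of the S6 kinases, was at 184, 204, 188 and 195 in WW, 205, 202, 188 and 202 in NW, 191, 208, 178 and 186 with ethanol alone and 176, 195, 191 and 191 in NE. Neither separated any pair of groups, and in NE against NW their adjusted p was 0.50 and 0.507. By subunit, the median log2 fold change in NE against NW was -0.11 over 44 genes of the 60S, with 23 at an unadjusted p under 0.05, and -0.094 over 31 genes of the 40S, with 9. The gene with at least 20 mean counts that was not lower in NE was the paralog Rps27l (log2 fold change 0.023, SE 0.11), and the second of the 75 above 0 was Rpl34, whose counts are in doubt.

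The loci that the counts miss were compared by their summed FPKM. Rpl26 with Gm15772 was at 482 ± 20.0 (SD, n = 4) in NW and 445 ± 13.7 in NE, Rpl30 with Gm12191 at 379.7 ± 8.62 and 348 ± 9.6, Rps27 with Rps27rt at 566 ± 43.3 and 497 ± 10.8, and Rpl34 with Rpl34-ps1 at 328 ± 6.77 and 311 ± 12.9. In the first 3 loci every NE mouse was below every NW mouse (exact permutation p = 0.0286 in each, adjusted p = 0.143 over the 20 tests of 4 loci in 5 comparisons), and in the last the groups overlapped (exact permutation p = 0.0571, adjusted p = 0.229). By counts, 3.28% of all genes lay lower in NE without overlap, and the share by FPKM was not computed. The sums were not corrected for the trend with transcript length given below.

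**Figure D4:**
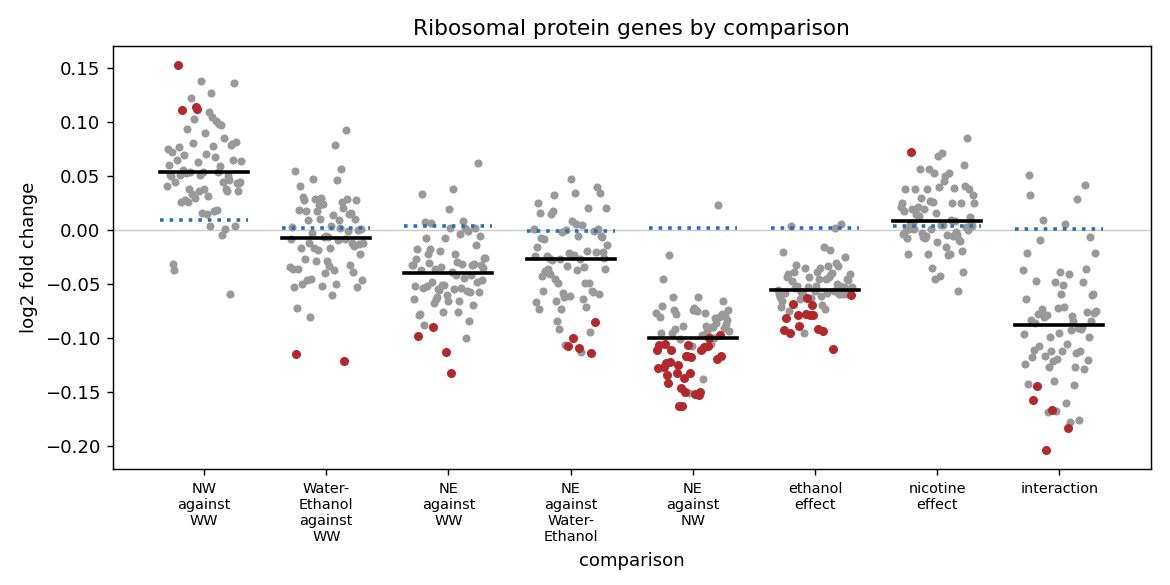
Log2 fold changes of the 74 ribosomal protein genes with at least 20 mean counts (points) in 8 comparisons, red where the unadjusted p was under 0.05; black lines are the medians of these genes and dotted blue lines the medians of all genes tested. In NE against NW the black line lies at -0.099 and 73 of the 74 points are below 0, and no gene passed the adjusted threshold in any of the 8 comparisons.

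Transcript length moved with these differences. Among the other genes of the table in NE against NW, the median log2 fold change was -0.084 for 125 genes with exons under 500 bases, -0.062 for 816 of 500 to 1000, -0.036 for 3296 of 1000 to 2000, 0.0010 for 6294 of 2000 to 4000 and 0.040 for 4753 of 4000 or more. The ribosomal protein genes of the same length classes had medians of -0.091 (15 genes), -0.10 (42) and -0.11 (14) in the first 3 classes. When the trend of each library with length was taken out, the median of the ribosomal protein genes in NE against NW was -0.032, and 4 of 75 had an unadjusted p under 0.05 in place of 32. In NW against WW the same correction changed the median from 0.054 to 0.014. Taking out the trend with GC content left the NE against NW median at -0.093 and 33 genes at that p. The part of length in the difference was not tested beyond this.

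**Figure D5:**
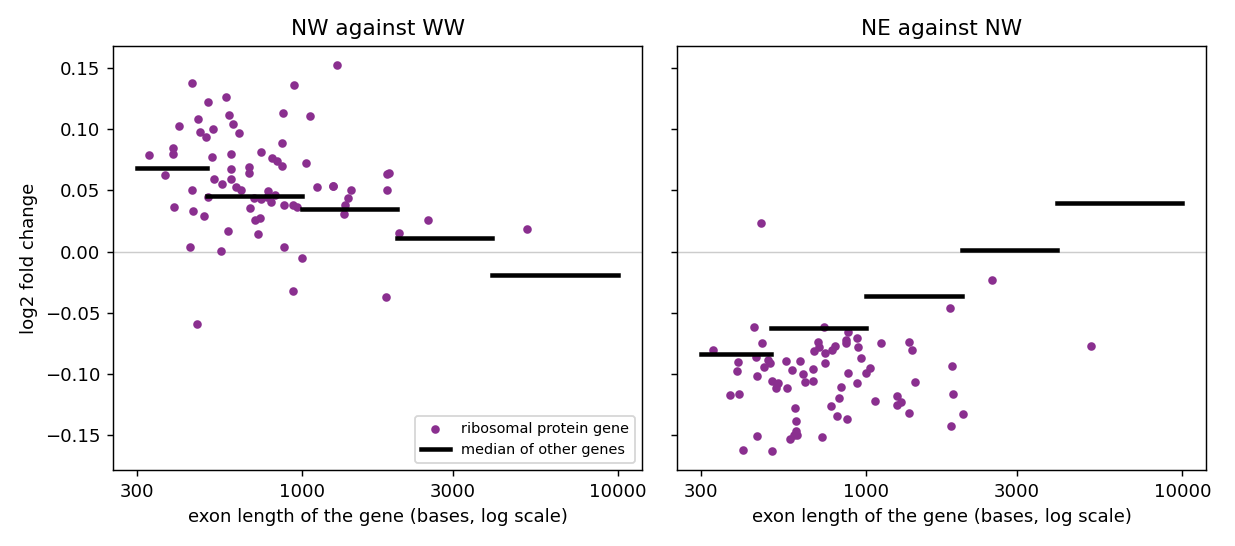
Log2 fold change (y axis) against exon length in bases (x axis, log scale) for the ribosomal protein genes (points) in NW against WW and NE against NW; black bars are the medians of all other genes tested in 5 length classes. The bars of other short genes lie on the same side of 0 as the points, at 0.046 and -0.062 for 500 to 1000 bases.

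Over all 16 mice, the ethanol effect was the mean of Water-Ethanol and NE against that of WW and NW. Of 76 ribosomal protein genes, 71 (93.4%) were lower with ethanol, against 49.2% of all 15592 genes, with a median log2 fold change of -0.055, and -0.019 after the length correction. None passed, where 4.5% of all genes did (702 genes, with 280 to 899 without single mice, and between 280 and 427 without WW replicate 2 or 3, Water-Ethanol replicate 3 or 4, NW replicate 2 or NE replicate 1 or 3). The nearest were Rps2 (log2 fold change -0.11, SE 0.035, edgeR adjusted p = 0.0752), Rpl3, which shapes the peptidyl transferase centre (log2 fold change -0.089, SE 0.032, edgeR adjusted p = 0.116), and Rpl14 (log2 fold change -0.092, SE 0.034, edgeR adjusted p = 0.117). Rps2 was at 229, 231, 229.9 and 232 CPM in NW and 202, 234, 208 and 217 in NE, and Rpl3 at 376, 394, 382 and 398 in WW, 400.2, 406, 371 and 417 in NW, 379, 395, 350.1 and 372 with ethanol alone and 338, 382, 364 and 370.1 in NE. Rps2 passed with DESeq2 (adjusted p = 0.036), with the GC correction (0.045), without WW replicate 1 (0.042) and without NE replicate 2 (0.030), and Rpl14 without Water-Ethanol replicate 2 (0.0496). At an unadjusted p under 0.05 there were 15 of 76 (19.7%), all lower, where 22.9% of all genes were, 10.1% lower; the number ran from 5 without Water-Ethanol replicate 3 or NE replicate 1 to 32 without Water-Ethanol replicate 2.

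The nicotine effect over both drinking conditions had a median log2 fold change of 0.0070 over the 76 genes, 48 higher and 28 lower, and a median of -0.0070 after the length correction. Its sign rested on single mice, with a median of -0.0028 without Water-Ethanol replicate 3, -0.0014 without NE replicate 2 and 0.026 without Water-Ethanol replicate 2. The number of higher genes ran from 35 without NE replicate 2 to 67 without Water-Ethanol replicate 2, and the number at an unadjusted p under 0.05 from 0 to 4, the latter without WW replicate 4 or NE replicate 1. None passed by edgeR, which made 0 calls over all genes, with 1599 at an unadjusted p under 0.05 and 104 called by DESeq2, and 1 of the 76 (1.32%, higher, against 3.56% of all genes in that direction and 10.3% in both) had an unadjusted p under 0.05. Of all genes 52% were higher, against 63.2% of the 76. Rpl7a, a 60S protein, was at 150.2, 158, 158 and 170.3 in WW, 170.2, 173, 163 and 172 in NW, 155, 165, 148 and 155 with ethanol alone and 148, 175, 157 and 164 in NE (log2 fold change 0.068, SE 0.036, edgeR adjusted p = 0.536), and Rplp1 was near it by p (log2 fold change 0.071, SE 0.038, edgeR adjusted p = 0.549).

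The interaction asks whether the ethanol difference was the same with and without nicotine. Its median over the 76 genes was -0.090, with 70 below 0 (92.1%, against 49.8% of all genes), and -0.046 after the length correction. None passed (smallest adjusted p = 0.678 by edgeR), 5 (6.58%) had an unadjusted p under 0.05, all below 0, against 2.01% of all genes below 0 and 6.76% in both directions, and over all genes edgeR called 0 and DESeq2 called 2. The first by p were Rpl37a (log2 fold change -0.17, SE 0.06, edgeR adjusted p = 0.678), Rps12 (log2 fold change -0.18, SE 0.077, edgeR adjusted p = 0.71) and Rpl23 (log2 fold change -0.14, SE 0.062, edgeR adjusted p = 0.71). The number at an unadjusted p under 0.05 was 17 without WW replicate 4 and 1 without Water-Ethanol replicate 2. The ethanol difference of these genes in nicotine mice was therefore not shown to differ from that in water mice. Rps12 was at 93.3, 93, 92 and 105 CPM in WW and 108, 102, 101 and 94.2 in NW, Rpl23 at 149, 157, 139.5 and 149 in Water-Ethanol and 138, 153, 146 and 144 in NE, and Rpl37a at 89.8, 97.2, 87.3 and 91.2 in Water-Ethanol.

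Size is limited by the spread between mice. The median half-width of the 95% confidence interval for a gene's log2 fold change was 0.10 in NE against NW and 0.11 in NW against WW for the 74 genes, and their intervals in NE against NW ran from -0.36 to 0.26. Differences of a few percent in single genes were thus not detectable with 4 mice per group.

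Other genes of protein synthesis were taken from lists. Their values were not corrected for transcript length, which moved with the differences above. Of ribosomal proteins whose symbols the rule does not catch, Fau, the ubiquitin-like fusion of a 40S protein, was at 87.9 ± 3.97 CPM (SD, n = 4) in NW and 83.8 ± 4.55 in NE, and Gnb2l1, the 40S scaffold also named Rack1, at 129 ± 3.94 and 125 ± 4.11, with edgeR adjusted p of 0.63 and 0.66. All 6 tested genes of this list were lower in NE than in NW, with a median log2 fold change of -0.077. The 77 genes of mitochondrial ribosomal proteins, a separate machine that makes proteins of the respiratory chain, had a median of -0.093 in NE against NW with 67 lower and 0 called. In the ethanol effect 66 of the 77 were lower (median -0.067), and 5 passed the threshold and fell, where 1.56% of all genes were called lower and 4.5% in both directions, namely Mrpl57 (log2 fold change -0.26, adjusted p = 0.0049), Mrpl54, Mrpl39, Mrpl2 and Mrpl47.

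Of 48 genes of ribosome biogenesis, which process ribosomal RNA and assemble the subunits in the nucleolus, 8 fell and 0 rose in the ethanol effect (median -0.065, 40 lower), where 1.56% of all genes were called lower. Ddx21, a helicase of rRNA transcription, had the smallest p (31.2 ± 1.40 CPM in WW, 32 ± 0.670 in NW, 27.8 ± 1.13 with ethanol alone and 27 ± 2.31 in NE, log2 fold change -0.20, adjusted p = 0.0090). The others were Pes1 and Bop1 of the PeBoW complex (adjusted p = 0.028 and 0.039), Rpf2, which loads the 5S particle (0.037), the nucleolar GTPase Gnl3 (0.041), and Ltv1, Utp20 and Rrp12 of 40S maturation (0.040, 0.039 and 0.047). Like those of the other lists and of the cell type markers, these calls were not examined without single mice. In such fits the ethanol effect calls over all genes ran from 280 to 899. In NE against NW 41 of the 48 were lower and 0 passed, and their summed level was 2108 to 2140 CPM in the NW mice and 1943 to 2053 in the NE mice.

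Initiation and elongation showed few calls. Of 28 initiation factors 0 passed in any comparison, with 24 lower and a median of -0.057 in the ethanol effect. Of 8 genes listed as elongation factors only Eef1e1, a partner of the tRNA synthetase complex, passed. It did so in NE against WW, where 0.118% of all genes were called lower (log2 fold change -0.34, adjusted p = 0.037). Its level was 20.1 ± 0.956 CPM in WW and 15.8 ± 0.639 in NE. With nicotine alone it was 16.05 ± 1.04, and with ethanol alone 16.69 ± 0.892. The lower mean was therefore not confined to the mice given both substances. Among 15 other mRNAs with a 5′ TOP start, 12 were lower in the ethanol effect (median -0.064) and Hnrnpa1, a splicing factor, was the one that passed and was higher (5.34 ± 0.633 in WW, 5.90 ± 0.804 in NW, 8.84 ± 1.17 in Water-Ethanol, 7.25 ± 2.36 in NE; Water-Ethanol against WW log2 fold change 0.74, adjusted p = 0.036; ethanol effect 0.52, adjusted p = 0.023). Its spread was widest in NE, and it did not pass in NE against WW. Of all genes 0.274% were called higher in Water-Ethanol against WW and 2.94% in the ethanol effect. The 28 genes of the mTOR and S6 kinase pathway had a median of 0.076 in NE against NW, and 0 passed in any comparison. In NE against NW 22 of them were higher, as were 7790 of all 15361 genes tested. Genes outside the ribosomal protein group with exons of 4000 bases or more had a median of 0.040 there. The part of length in this list was not tested.

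The 5 genes outside the group whose level over the 16 mice was most like the mean of the 74 were Pfdn5 (Pearson's r = 0.96), a subunit of the chaperone prefoldin, Rps3a1 (0.95), a 40S protein gene that the symbol rule misses, Cox4i1 (0.94), a subunit of cytochrome c oxidase, Tmem176a (0.91) and Pdzd11 (0.90). The 5 have exons of 678 to 1119 bases.

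Cell type markers were set beside these values. In the ethanol effect 3 of 8 microglial markers were called lower (C1qa, C1qb and Cx3cr1), with a median log2 fold change of -0.20, as were 2 of 8 of oligodendrocytes (Cnp and Opalin, median -0.13), 1 of 8 of astrocytes (Aldh1l1, median -0.073) and 1 of 8 of endothelium (Slco1a4, median -0.042), and of the choroid plexus 1 of 8, Kcnj13, was called higher (median 0.098). Of all genes 1.56% were called lower and 2.94% higher in this comparison. None of the 12 neuronal (median -0.021) or the 10 cerebellar granule neuron markers (median 0.19) was called, nor of those of the olfactory bulb (8 genes, median -0.039). In NE against NW no marker was called. All 8 microglial markers were lower in NE (median log2 fold change -0.16, 5 at an unadjusted p under 0.05), as were all 8 of oligodendrocytes (-0.076, 1 at that p), 7 of 8 of endothelium (-0.071, 2 at that p), 6 of 8 of astrocytes (-0.054, 2 at that p) and 9 of 12 of neurons (-0.026, none at that p). All 10 of granule neurons (0.15, none at that p) and 6 of 8 of the choroid plexus (0.045, 1 at that p) were higher, and those of the olfactory bulb were split, with 4 higher and 4 lower. Of all genes 4.94% were lower at that p and 11.9% passed it in both directions. The summed levels of NW and NE overlapped in every marker list, for instance 239 to 263 CPM in NW and 212 to 260 in NE for microglia, and 611 to 1340 and 1139 to 1293 for granule neurons. WW and Water-Ethanol did not overlap in the sums of astrocytes (6295 to 6806 and 6022 to 6218 CPM) and endothelium (304 to 316 and 279 to 302 CPM). Of the pituitary and red blood cell lists 1 gene each could be tested and none was called. Their part in the ribosomal protein values was not tested.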

How the data were processed

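Whole-brain RNA was sequenced as 150-base single reads on an Illumina HiSeq instrument. The labels name a TruSeq RNA kit, which does not mark strand, while the study's methods describe a stranded kit. The submitters' processing notes name bcl2fastq 1.8.4, Trimmomatic 0.32, FastQC, TopHat2, Cufflinks, Cuffdiff and the build mm10 (GRCm38). The deposited counts are raw reads per gene, and the program that counted them, with its use of strand and of reads that match several genes, is not given in the sources used here. The deposited FPKM values were made by the authors with the Cufflinks tools and are scaled to length and depth. No column of the authors' own comparisons was used.

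Total counts were 27100352 to 32880979 per mouse. Counts were filtered with filterByExpr, scaled by TMM and tested with edgeR 4.0.16 (glmQLFit, glmQLFTest; R 4.3.3), in fits of 8 mice for each pair of groups and of all 16 for the ethanol effect, the nicotine effect and the interaction. P-values were adjusted by Benjamini and Hochberg over all genes tested, with a threshold of 0.05. Exact two-sided permutation tests of log2(CPM + 0.5) used all 70 splits of 4 against 4. The labels tie each library to 1 mouse and give no batch.

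Genes were named if they are stalk proteins, Rpsa, Rps6, Rpl5, Rpl11, Rps27a, a tissue paralog or the highest or lowest in FPKM, or if they had an adjusted p under the threshold or, where none had, 1 of the 3 smallest p-values in a comparison. From the other lists, genes past the threshold and Fau and Gnb2l1 were named. Some items that the rule takes are not reported here. Rpl37, Rpl22, Rps21 and the genes whose sequences are printed were named after their values were seen. The genes and lists were chosen with earlier results of these data known.

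Alternatives were RLE factors, TMM factors without the ribosomal protein genes, all 16 mice in 1 fit, DESeq2 1.42.0, edgeR's likelihood-ratio test, other filters, limma 3.58.1 on log2(FPKM + 1), corrections for GC content and length, pseudogene counts added, and leaving out each mouse. Few of the pseudogene copies are in the count table. Adding their counts moved the NE against NW median from -0.0994 to -0.0990, so it could test little of the reads shared with copies. The fits were tested on simulated data.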

Additional observations from a re-analysis of the deposited data

Results flagged for a closer look

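In 3 of 92 groups of 4 mice 1 mouse stood apart from the other 3 by Dixon's test at the 95% level; chance gives about 1 in 20, or 4.6 of 92. Rps12 was at 104.8 CPM in WW replicate 4 and at 92.0 to 93.3 in the other WW mice. Rplp1 was at 199 CPM in NW replicate 1 and at 179.9 to 182 in the others. Rps27a was at 162 CPM in NW replicate 3 and at 174 to 175 in the others.

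For 4 loci the FPKM table holds a high level where the counts are at or near 0. The summed mean over 16 mice was 463 FPKM for Rpl26 with Gm15772, 368 FPKM for Rpl30 with Gm12191, 315 FPKM for Rpl34 with Rpl34-ps1 and 540 FPKM for Rps27 with Rps27rt. For Rps27 with Rps27rt all NE mice were also below all Water-Ethanol mice (log2 difference -0.18, exact permutation p = 0.0286, adjusted p = 0.143 over 20 tests). By counts, 1.45% of all genes lay lower in NE in this way, and the share by FPKM was not computed.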

How the results depend on the processing

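Of the 24 results for single named genes, 252 of 255 alternatives other than leaving out a mouse kept direction and side of the threshold, and 3 brought the gene past it. Of 264 fits without 1 mouse, 3 did so and 0 changed direction. These genes had the smallest p-values of their comparisons, and none had passed in the main fits. A smaller difference still counted as kept, so these numbers say little about size. For Rpl9 in NE against NW the log2 fold change ran from -0.15 to -0.087 over the alternatives. DESeq2 called 1 ribosomal protein gene in NE against NW (Rpl9) and 1 in the ethanol effect (Rps2), and the GC correction called 1 in the ethanol effect (Rps2), where edgeR called 0. Leaving out 1 mouse gave 0 to 1 called genes in Water-Ethanol against WW (Rps21, without WW replicate 4) and 0 to 1 in the ethanol effect (Rps2 without WW replicate 1 or NE replicate 2, Rpl14 without Water-Ethanol replicate 2), and 0 in the other 6 comparisons. The length correction moved the NE against NW median from -0.099 to -0.032, and it turned the medians of Water-Ethanol against WW (-0.0064 to 0.0013) and of the nicotine effect (0.0070 to -0.0070). Over all genes, DESeq2 called 123 in NW against WW where edgeR called 0, 603 in Water-Ethanol against WW where edgeR called 70, 517 in NE against WW where edgeR called 48, and 1093 in the ethanol effect where edgeR called 702. Without the 50 genes of highest count the ribosomal protein share was 1.08% in WW, 1.13% in NW, 1.08% with ethanol alone and 1.05% in NE, and as a share of summed FPKM, which weighs short genes more, it was 5.05%, 5.17%, 5.08% and 4.94%. No paired analysis was possible because each library came from a different mouse and the labels pair no mice across groups. With 4 mice per group, differences of a few percent in 1 gene could not be resolved, and reads shared with pseudogenes limit the separation of single genes.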
